A study of Mus musculus with 7 samples.

Results

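The small subunit of the cytosolic ribosome was examined at the level of its protein genes in the cerebral cortex of mice without the creatine transporter. Its members were the genes of the expression table whose symbol is Rpsa, or Rps followed by a number, with an a, x, l or a1 ending allowed, which took in 33 of the 24346 genes. The 33 were 32 genes annotated as protein coding plus Rps4l, which GENCODE release M21 lists as a transcribed processed pseudogene. Membership rested on the symbol alone, but this set of genes was chosen with earlier results of these data known. Total RNA came from the cortex of 7 male mice on a C57BL/6J background at postnatal day 100, 1 animal per library. Of these, 4 were CrT-/y animals, in which the X-linked Slc6a8 gene lacks exons 5 to 7 in the whole body, and 3 were CrT+/y littermates. Replicates carry the numbers 0 to 3 for CrT-/y and 1 to 3 for CrT+/y. Because the deletion is not limited to the brain or to a cell type, effects that arise in the cortex and outside it cannot be told apart. Since the tissue is bulk cortex, fewer cells of a type and less RNA per cell cannot be told apart in any of the values below.

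Cytosolic ribosomes consist of a large subunit, which joins amino acids, and a small subunit, the 40S particle, which binds the messenger RNA, scans for the start codon and reads each codon in its decoding centre. The 40S particle has a head with a beak, a platform and a body with a foot, and each of its proteins is present in a single copy, built around the 18S ribosomal RNA. In mammals the messages of these proteins begin with a cytosine followed by a pyrimidine tract, the 5′ terminal oligopyrimidine or TOP motif, through which mTOR signalling and the protein Larp1 control their translation. Neurons depend on these proteins for translation in the soma and in their processes.

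Expression was measured as FPKM, fragments scaled by transcript length and library size, which allows levels to be set side by side between genes. Slc6a8 (chrX:73673150-73682502 in GRCm38, 13 exons) served as the check of the labels and measured 12.4, 14.9, 14.7 and 15.7 FPKM in CrT-/y replicates 0 to 3 against 32.3, 29.6 and 28.0 in CrT+/y replicates 1 to 3 (log2 fold change -1.05, SE 0.087, limma adjusted p = 0.00238). FPKM covers the exons outside the deletion as well. The 12988 genes that averaged 1 FPKM or more were compared with limma on log2(FPKM + 0.1), and a gene was called when its Benjamini-Hochberg adjusted p was below 0.1. All fold changes are on that scale and are CrT-/y minus CrT+/y. Over all tested genes 377 were called higher and 941 lower in CrT-/y animals. Upper quartile scaling turned that split to 741 higher and 463 lower. The median log2 fold change over all tested genes was -0.033. All 33 small subunit genes passed the filter on low values. The lowest values of the table fall in steps, from which the depth of the libraries relative to the deepest, CrT-/y replicate 2, came to about 72.4% to 87.3% in the other CrT-/y libraries and to 70.0%, 73.8% and 87.9% in CrT+/y replicates 1 to 3. CrT-/y replicate 1, at 72.4%, was as shallow as the shallower CrT+/y libraries. Markers of excitatory and inhibitory neurons, astrocytes, oligodendrocytes and microglia were present in every library. Of these, 2 of 5 excitatory neuron markers were called lower and 1 of 5 inhibitory neuron markers higher in CrT-/y animals. Of endothelial markers 2 of 4 were called lower. Olfactory bulb markers, 3 genes, summed to 5.91 to 15.5 FPKM in CrT-/y and 2.89 to 5.15 FPKM in CrT+/y animals, without overlap and with 1 called higher. The part of these markers in the results on the members was not tested. Choroid plexus and ependyma markers summed to 394 FPKM in CrT+/y replicate 2 and to values between 6.85 and 53.6 FPKM in the other 6 animals, with 1 of 4 tested called higher.

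Before the levels, 1 sequence feature decides how a member can be read. Rps27, an eS27 family protein with a zinc finger, has an intronless copy, Rps27rt, that the symbol rule does not include. Rps27 lies at chr3:90212522-90213651 and Rps27rt at chr9:114982366-114982739 (GENCODE M21, GRCm38). Their coding sequences are shown against that of the paralog Rps27l (chr9:66946086-66949516) because the reads of the first pair cannot be separated over these 252 bases, while those of Rps27l can. The sequences come from the GENCODE M21 transcripts and GRCm38, and capitals mark the bases of Rps27l that differ from Rps27.
Rps27 and Rps27rt, coding: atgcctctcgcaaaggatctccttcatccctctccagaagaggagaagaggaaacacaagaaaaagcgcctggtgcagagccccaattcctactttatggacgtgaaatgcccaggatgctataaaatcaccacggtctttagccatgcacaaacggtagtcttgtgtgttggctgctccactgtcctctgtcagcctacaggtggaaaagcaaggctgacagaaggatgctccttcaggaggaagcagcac
Rps27l, coding: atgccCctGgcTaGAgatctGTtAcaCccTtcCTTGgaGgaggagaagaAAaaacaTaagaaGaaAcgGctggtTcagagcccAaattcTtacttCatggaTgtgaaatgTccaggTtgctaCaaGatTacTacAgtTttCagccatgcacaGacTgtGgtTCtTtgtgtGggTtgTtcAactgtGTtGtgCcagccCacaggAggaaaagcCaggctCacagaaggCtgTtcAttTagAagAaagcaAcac
Over the 252 bases, which encode 84 residues, Rps27 and Rps27rt had 0 differences. Rps27l differed from Rps27 at 60 positions, an identity of 76.2%, and the longest run without a difference was 11 bases.

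The Rps27 row of the table held very little of the signal of this pair. Rps27 itself measured 4.74, 4.44, 5.18 and 4.61 FPKM in CrT-/y replicates 0 to 3 and 4.53, 61.9 and 3.32 FPKM in CrT+/y replicates 1 to 3. CrT+/y replicate 2 stood apart at 61.9 FPKM and the other 6 animals lay between 3.32 and 5.18 FPKM. For Rps27rt the levels were 559, 606, 573 and 644 FPKM in CrT-/y animals and 358, 311 and 587 FPKM in CrT+/y animals, so that CrT+/y replicates 1 and 2 were low and replicate 3 lay within the CrT-/y range. Rps27 carried 0.563% to 1.25% of the summed FPKM of the pair in 6 animals and 16.6% in CrT+/y replicate 2. The fitted Rps27 difference (log2 fold change -1.04, SE 0.82, limma adjusted p = 0.459) turned to 0.28 without that animal. When both rows were summed, an alternative chosen after the values were seen, the log2 fold change was 0.48 (SE 0.15, limma adjusted p = 0.107), and without CrT+/y replicate 3 it was 0.71 (limma adjusted p = 0.00268). Neither row alone can therefore be read as the level of the Rps27 protein's messages.

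**Figure D1:**
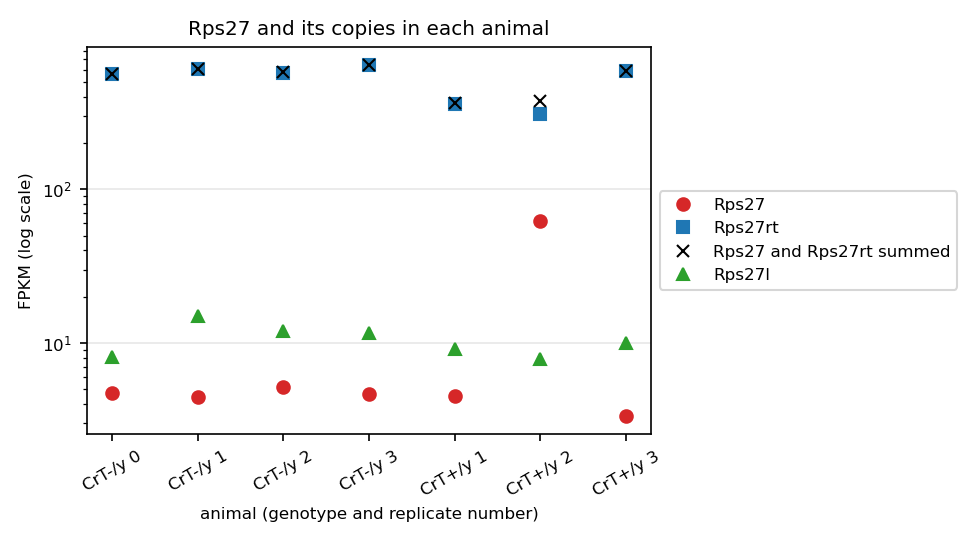
FPKM on a log axis in each of the 7 animals for Rps27, Rps27rt, their sum and the paralog Rps27l, 1 point per animal. Rps27 lies between 3.32 and 5.18 FPKM except at 61.9 in CrT+/y replicate 2, while the sum is lowest in CrT+/y replicates 1 and 2.

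Sharing of sequence between loci was common among the other members too. Of all windows of 100 bases along each member's principal transcript, the share found in the transcript of at least 1 other annotated gene was 98.4% for Rps27, 83.6% for Rps6, 81.4% for Rps12, 77.6% for Rps13 and 58.5% for Rps2, whose windows recur in 36 other genes. It was 0% for Rps21, Rps27l and Rps3. The methods state that uniquely aligned reads were used, yet Rps27rt measured 311 to 644 FPKM with a coding sequence identical to that of Rps27. How reads of shared stretches were assigned is not known. Levels of members with many shared windows are therefore less certain than those of members with none. Rps4l, an intronless relative of the X-linked Rps4x, matched the Rps4x coding sequence at 79.6% of 789 bases, and only 1.66% of its windows recur elsewhere.

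Small subunit genes were among the abundant messages of the cortex. Their median over members was 224 FPKM, averaged over the 7 animals, against 11.1 FPKM for all tested genes, and 28 of the 33 had a mean of 100 FPKM or more. Rps15, a head protein near the decoding site, had the highest mean at 651 FPKM, with Rps21 at 603 and Rps23 at 481 next in order. The ranges of Rps15 and Rps21 overlap in both genotypes, and those of Rps21 and Rps23 only in CrT+/y animals. Below 100 FPKM lay Rps19 at 52.4, Rps15a at 23.9, Rps4l at 16.9, Rps27 at 12.7 and Rps27l at 10.5 FPKM. All 33 rows spanned a range of 10.5 to 651 FPKM. Its low end was held by the paralog Rps27l, by Rps27, whose row cannot be read alone, and by Rps4l, annotated as a pseudogene. Rps27 summed with Rps27rt lay between 362 and 648 FPKM in the single animals. The proteins assemble in equal numbers, and without Rps27l, Rps27 and Rps4l the message levels spanned 23.9 (Rps15a) to 651 FPKM (Rps15). FPKM is scaled by transcript length. The principal transcript of Rps15a has 5179 bases for 390 coding bases, and that of Rps15 has 500 for 435. The part of transcript length in this range was not tested.

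**Figure D2:**
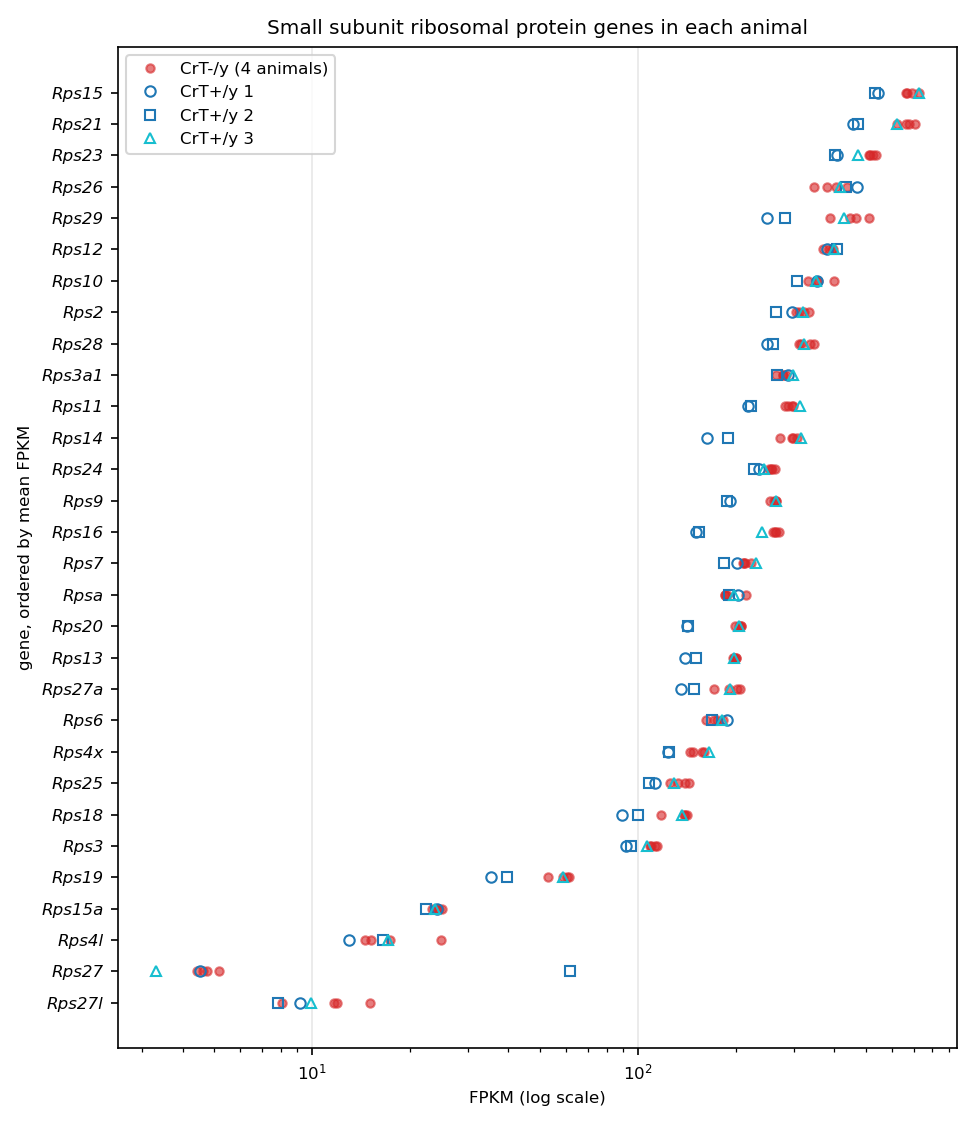
FPKM on a log axis for 30 small subunit genes, ordered by their mean, with 1 point per animal. In most rows the open circle and square of CrT+/y replicates 1 and 2 lie left of the 4 filled CrT-/y points, and the triangle of CrT+/y replicate 3 lies among or beyond them.

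Across genotypes, 27 of the 33 members had a positive log2 fold change. The median over all 33 was 0.21, against the median of -0.033 over all tested genes. Only Rps16, Rps21 and Rps23 were called higher in CrT-/y animals, 3 of 33 beside 2.90% of all tested genes, and 0 were called lower beside 7.25%. At an unadjusted p below 0.05 there were 17 of the 33 members, all of them positive, beside 3252 of the 12988 tested genes in either direction. The genotypes did not overlap in 5 members, all higher in CrT-/y animals (Rps16, Rps21, Rps23, Rps3 and Rps24), and for this measure the share over all tested genes was 6.57% higher and 15.0% lower. Leaving out CrT+/y replicate 3 raised the number of called members to 23, beside 10.3% of all tested genes higher and 18.4% lower. Leaving out any of the other 6 animals reduced the number of called members to 0 or 1. Rps16, Rps21 and Rps23 were called in none of those 6 fits. The single call, made without CrT-/y replicate 0, was Rps27l (limma adjusted p = 0.0874), beside 164 of all tested genes called higher. With no filter on low values 0 members were called, beside 206 of all tested genes called higher. With upper quartile scaling 12 members were called, beside 741 of all tested genes. Below, values are given for CrT-/y replicates 0 to 3 first and for CrT+/y replicates 1 to 3 second.

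The 3 called genes sit in different places of the subunit. Rps16, a head protein whose tail reaches the tRNA in the P site, measured 265, 271, 264 and 259 FPKM in CrT-/y replicates 0 to 3 and 150.2, 154 and 239 FPKM in CrT+/y replicates 1 to 3. All 3 CrT+/y animals were below the lowest CrT-/y animal, with replicate 3 much nearer to it than replicates 1 and 2. The means were 264 ± 5.06 FPKM (SD, n = 4) against 181 ± 50.4 (SD, n = 3) (log2 fold change 0.58, SE 0.14, limma adjusted p = 0.0599), and without CrT+/y replicate 3 the log2 fold change was 0.80 (limma adjusted p = 0.000863). Rps23, the uS12 protein of the decoding centre, measured 511, 538, 514 and 526 FPKM in CrT-/y and 406, 402 and 474 FPKM in CrT+/y animals. Again the genotypes did not overlap, and replicates 1 and 2 were the lowest (log2 fold change 0.29, SE 0.071, limma adjusted p = 0.0586). Rps21, on the back of the particle next to Rpsa, measured 625, 677, 663 and 705 FPKM in CrT-/y animals and 455, 474 and 624 FPKM in CrT+/y animals. Here CrT+/y replicate 3 lay just under CrT-/y replicate 0, so that the groups are separate only by a narrow margin (log2 fold change 0.38, SE 0.11, limma adjusted p = 0.08).

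Close behind in order of p came Rps29 and Rps3, which missed the threshold. For Rps29, a small zinc-binding head protein, the values were 387, 446, 464 and 509.7 FPKM and 249, 281 and 429.7 FPKM, with CrT+/y replicate 3 inside the range of the other genotype (log2 fold change 0.53, SE 0.17, limma adjusted p = 0.105). Rps3, which lines the channel where the messenger RNA enters, had 114, 112, 109 and 109 FPKM in CrT-/y and 91.9, 95.3 and 106 FPKM in CrT+/y animals. In Rps3 all CrT+/y animals were below all CrT-/y animals, and the difference was small beside that of Rps29 (log2 fold change 0.19, SE 0.06, limma adjusted p = 0.107). None of the 100-base windows of Rps3 or Rps21 occurs in another annotated gene.

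The same order of animals recurred across most of the subunit. In 23 of the 33 members CrT+/y replicates 1 and 2 were both below every CrT-/y animal, an order found in 16.4% of all tested genes. In 5 of those 23 members replicate 3 was below every CrT-/y animal as well. Over all 33 members CrT+/y replicate 3 lay within the CrT-/y range in 19, above it in 8 and below it in 6, and it exceeded both other CrT+/y animals in 26, against 33.4% of all tested genes. The 23 members called without CrT+/y replicate 3 were the same 23. That fit compares 4 animals with replicates 1 and 2, so its calls depend on that omission.

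Rps14, a platform protein lost in the 5q- syndrome, shows this most plainly. It measured 272, 296, 298 and 307 FPKM in CrT-/y animals and 162, 189 and 315 FPKM in CrT+/y animals, so that replicate 3 was the highest of all 7 and replicates 1 and 2 the lowest (log2 fold change 0.46, SE 0.19, limma adjusted p = 0.173). Without replicate 3 its log2 fold change was 0.74 (limma adjusted p = 0.00335). Rps19, the most often mutated gene in Diamond-Blackfan anaemia, had 52.9, 58.8, 61.4 and 60.5 FPKM and 35.3, 39.5 and 58.7 FPKM (log2 fold change 0.42, SE 0.15, limma adjusted p = 0.128). Its replicate 3 lay within the CrT-/y range. Rps20 of the head had 204, 207, 198 and 207 FPKM and 142, 142 and 204 FPKM and the same order of animals (log2 fold change 0.35, SE 0.12, limma adjusted p = 0.119). Rps4x, on the X chromosome like Slc6a8, had 144, 148, 159 and 157 FPKM and 123, 124 and 165 FPKM, with replicate 3 above all CrT-/y animals (log2 fold change 0.16, SE 0.10, limma adjusted p = 0.358).

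Summed over the 33 members the level was 8228, 8326, 8327 and 8504 FPKM in CrT-/y replicates 0 to 3. In CrT+/y replicates 1 to 3 it was 6745, 6789 and 8368 FPKM. The CrT-/y animals were thus within a narrow band, CrT+/y replicates 1 and 2 below it and replicate 3 inside it. As a share of the summed FPKM of the table this was 2.11% to 2.20% for the 4 CrT-/y libraries and 1.67%, 1.76% and 2.08% in the CrT+/y animals. The median coefficient of variation over members was 4.80% among CrT-/y animals and 14.4% among CrT+/y animals, and the SD was larger among CrT+/y animals in 28 members.

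**Figure D3:**
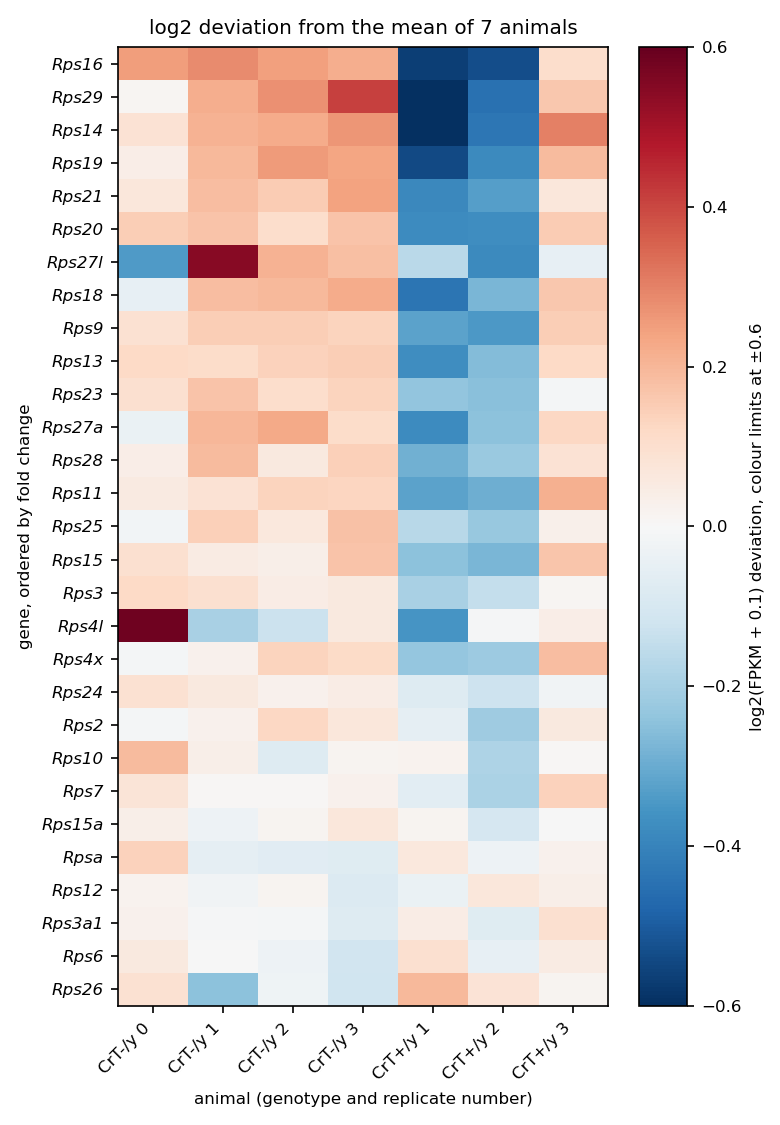
Colour map of the log2 deviation of each animal from the mean of all 7, for 29 members (without Rps27) ordered by fold change, with colour limits at ±0.6. Blue fills CrT+/y replicates 1 and 2 in the upper rows, whereas CrT+/y replicate 3 is red or pale there, and the lowest 6 rows are pale across all animals except for Rps26.

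A further 10 members did not follow this order. They were Rps10, Rps12, Rps15a, Rps26, Rps27, Rps27l, Rps3a1, Rps4l, Rps6 and Rpsa. Rps27 is placed here by its own row, which cannot be read alone. Rps26, which contacts the messenger RNA upstream of the start codon, measured 437, 347, 404 and 379 FPKM in CrT-/y animals and 471, 436 and 416 FPKM in CrT+/y animals. Its groups overlap and it did not pass the test (log2 fold change -0.17, SE 0.086, limma adjusted p = 0.24). Rps6, the 40S protein phosphorylated by the S6 kinases, measured 182, 174, 171 and 161 FPKM and 187, 169 and 181 FPKM, with overlapping groups (log2 fold change -0.056, SE 0.061, limma adjusted p = 0.605). For Rps3a1, another protein of the exit side, the values were 284, 278, 277 and 265 FPKM and 288, 266 and 298 FPKM (log2 fold change -0.04, SE 0.06, limma adjusted p = 0.712). The groups of Rps3a1 overlap, with CrT+/y replicates 1 and 3 above every CrT-/y animal. Rps12, a beak protein, had 395, 384, 394 and 368 FPKM in CrT-/y animals and 379, 408 and 399.7 FPKM in CrT+/y animals (log2 fold change -0.038, SE 0.057, limma adjusted p = 0.718). Rpsa, also known as the laminin receptor, had 214, 187, 185 and 184 FPKM and 203, 189.8 and 197 FPKM (log2 fold change -0.032, SE 0.066, limma adjusted p = 0.794). Its highest value was in CrT-/y replicate 0 and the other 3 CrT-/y animals were the lowest of all. The negative fold changes of Rps12, Rps3a1, Rps6 and Rpsa were positive under upper quartile scaling, at 0.025, 0.022, 0.0064 and 0.030, and that of Rpsa also under median centring, at 0.0034.

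Both paralogs were expressed at low levels and neither passed the test. Rps27l, a p53-responsive relative of Rps27, measured 8.10, 15.0, 11.9 and 11.7 FPKM in CrT-/y animals and 9.17, 7.85 and 9.91 FPKM in CrT+/y animals. CrT-/y replicate 0 lay among the CrT+/y animals and the other 3 were above them (log2 fold change 0.35, SE 0.18, limma adjusted p = 0.253). Rps4l had 24.9, 14.5, 15.2 and 17.3 FPKM and 13.0, 16.5 and 17.0 FPKM, where CrT-/y replicate 0 was the highest and the groups otherwise overlap (log2 fold change 0.19, SE 0.18, limma adjusted p = 0.546). Of the summed FPKM of Rps4l and Rps4x, the Rps4l part was 8.72% to 14.8% in the 4 CrT-/y libraries and 9.38% to 11.7% in the 3 CrT+/y libraries.

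**Figure D4:**
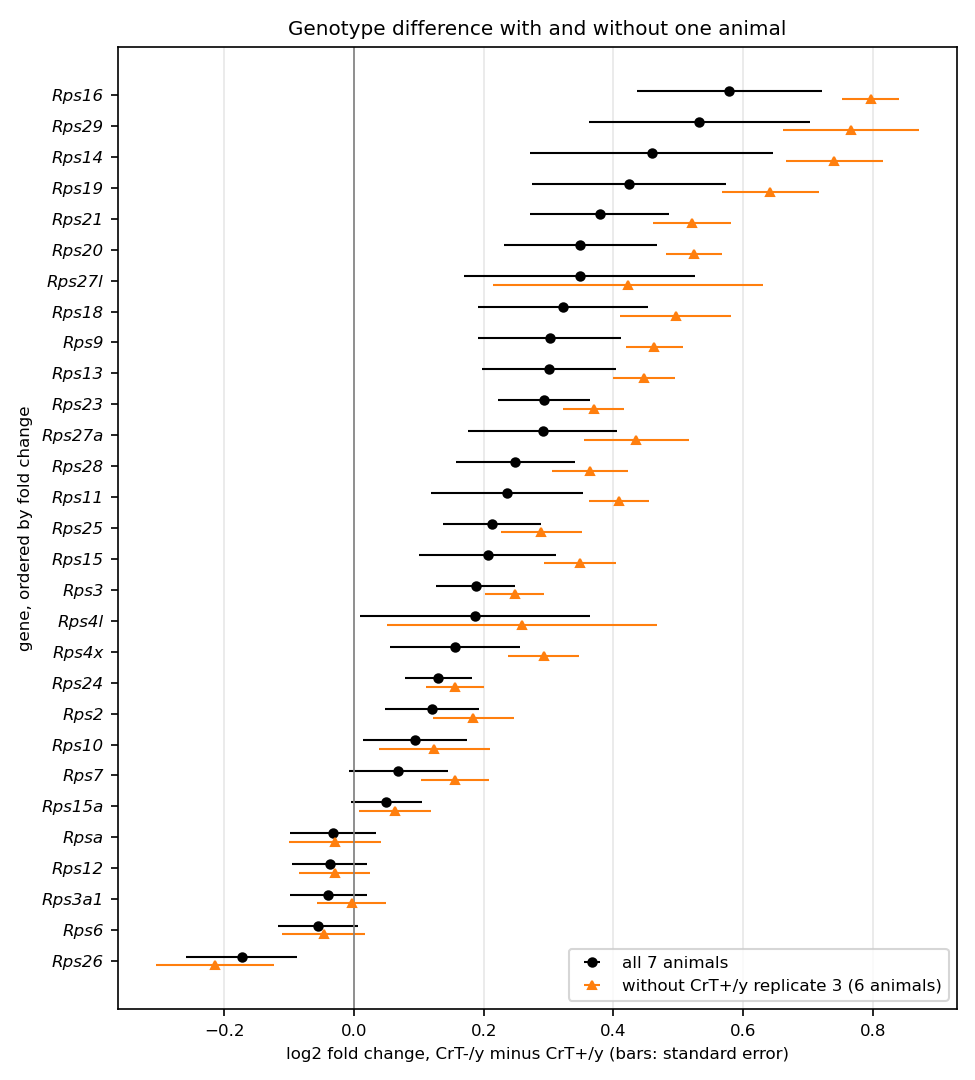
Log2 fold change (CrT-/y minus CrT+/y) with its standard error for 29 members (without Rps27), from all 7 animals (black circles) and from 6 animals without CrT+/y replicate 3 (orange triangles). Rps16 moves from 0.58 to 0.80, and the triangles lie right of the circles in nearly all upper rows while the lowest rows hardly move.

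Grouped by position, the median of the log2 fold changes was 0.27 for the 14 head proteins, with 1 called member, the 14 proteins of body, foot and back had a median of 0.13 and 2 called members, and the 3 of the platform (Rps14, Rps26 and Rps3a1) a median of -0.040, or 0.022 with upper quartile scaling, and 0 called. Without CrT+/y replicate 3, 12 of the 14 head proteins, 10 of the 14 of body, foot and back and 1 of the 3 of the platform were called higher. Of all tested genes 10.3% were called higher in that fit and 2.90% in the fit of all 7 animals. The 15 members of protein families shared with bacteria (uS) had a median of 0.29 with 2 called, and the 16 found in eukaryotes without a bacterial counterpart (eS) had a median of 0.13 with 1 called. No test of the difference between positions or families was run. The 3 proteins at the messenger RNA entry had values of 0.12 (Rps2), 0.19 (Rps3) and 0.30 (Rps9).

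The symbol rule leaves out 3 further 40S genes, which were read beside the members. Fau, whose product is a ubiquitin-like protein fused to eS30, measured 267, 295, 293 and 307 FPKM in CrT-/y animals and 233, 236 and 293 FPKM in CrT+/y animals (log2 fold change 0.20, SE 0.089, limma adjusted p = 0.203). Its CrT+/y replicates 1 and 2 were low and replicate 3 was within the CrT-/y range. Gnb2l1, the gene of the signalling scaffold RACK1, had 114, 109.8, 111 and 116 FPKM and 103, 102 and 121 FPKM, with replicate 3 the highest of all (log2 fold change 0.056, SE 0.067, limma adjusted p = 0.634). Rps27rt is described above (log2 fold change 0.56, SE 0.18, limma adjusted p = 0.108). None of the 3 was called, beside 2.90% of all tested genes called higher. Without CrT+/y replicate 3 all 3 were called higher, beside 10.3% of all tested genes.

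The large subunit proteins of the same ribosome, 47 tested, reached 0.18 in the median of their log2 fold changes with 6 called higher and 0 lower. Over all tested genes 2.90% were called higher and 7.25% lower. Without CrT+/y replicate 3 there were 29 large subunit genes called higher, beside 10.3% of all tested genes. The proteins of the mitochondrial small subunit, which work in a separate ribosome, had a median of 0.014 over 29 genes (-0.055 with the length correction and 0.077 with upper quartile scaling), with 0 called higher and 2 lower. Leaving out CrT+/y replicate 3 changed this to 6 higher and 4 lower, with a median of 0.071, beside 10.3% and 18.4% of all tested genes. The difference between these groups and the members was not tested.

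The lists of genes that build, load or control the small subunit each had a median below 0, as did all tested genes (-0.033). Medians of the assembly and 43S lists lay near that value. No gene of these lists was called higher, beside 2.90% of all tested genes, of which 7.25% were called lower. Upper quartile scaling moved the medians of the assembly and 43S lists to 0.027 and 0.038, and that of all tested genes to 0.028. Without CrT+/y replicate 3 the assembly list had 3 genes called higher and 7 lower, and the 43S list 6 and 5. The TOP and S6 kinase list had 0 and 9, and the ubiquitylation and rescue list 1 and 2. In that fit 10.3% of all tested genes were called higher and 18.4% lower. Of 32 small subunit assembly factors 0 were called higher and 2 lower (median -0.034). Those were Ak6, an adenylate kinase needed for late 40S maturation, at 7.22 ± 0.24 FPKM (SD, n = 4) against 11.2 ± 0.57 (SD, n = 3) (log2 fold change -0.63, SE 0.065, limma adjusted p = 0.00597), and Mphosph10, a component of the small subunit processome, at 5.73 ± 0.19 FPKM (SD, n = 4) against 7.47 ± 0.86 (SD, n = 3) (log2 fold change -0.37, SE 0.088, limma adjusted p = 0.0558). The groups did not overlap in either gene. Of 21 factors of the 43S preinitiation complex, which places the initiator tRNA on the 40S particle, 0 were called higher and 3 lower (median -0.025). Eif5b, which joins the subunits, measured 11.6, 11.4, 12.03 and 11.3 FPKM in CrT-/y and 17.0, 15.7 and 12.6 FPKM in CrT+/y animals (log2 fold change -0.37, SE 0.094, limma adjusted p = 0.0634). Eif2s1, the regulated subunit of eIF2, had a log2 fold change of -0.21 and Eif3b, an eIF3 subunit, one of -0.18, with limma adjusted p of 0.08 and 0.0697.

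Among 20 genes of TOP messenger RNA control and the S6 kinases, 0 were called higher and 3 lower (median -0.077). That median was -0.011 with the length correction and -0.015 with upper quartile scaling, beside 0.0020 and 0.028 over all tested genes. Eif4e, which binds the cap, measured 51.5, 45.4, 47.1 and 43.4 FPKM in CrT-/y animals and 63.5, 57.0 and 52.1 FPKM in CrT+/y animals, without overlap (log2 fold change -0.30, SE 0.081, limma adjusted p = 0.0754). Eif4g1, the scaffold bound by Eif4e, and Rps6ka2, a kinase of the RSK family, were lower by a log2 fold change of -0.19 and -0.24 (limma adjusted p = 0.0612 and 0.0417). Of 12 genes of 40S ubiquitylation and ribosome rescue only Abce1, the ATPase that splits the subunits after termination, was called. It measured 26.2 ± 1.18 FPKM (SD, n = 4) against 31.5 ± 2.52 (SD, n = 3) (log2 fold change -0.26, SE 0.067, limma adjusted p = 0.0627). The median of the list was -0.088, or -0.051 with the length correction and -0.026 with upper quartile scaling.

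The start sites of 6 members are shown because TOP control acts on the first bases of the message. RefSeq (GRCm38.p6) gave 29 start windows for 24 members, each of 30 bases with the annotated start at the centre. Capitals mark the longest run of C and T. The first 3 windows belong to members that did not follow the order of animals described above, and the last 3 to members that did, of which Rps16 has only a short run.
Rps10 (chr17:27635230-27635259, minus strand): gcgccgcgcacgCCCCTTCCTTTCCagcct
Rps6 (chr4:86857353-86857382, minus strand): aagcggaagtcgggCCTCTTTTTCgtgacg
Rps26 (chr10:128626492-128626521, minus strand): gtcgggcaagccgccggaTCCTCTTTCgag
Rps18 (chr17:33955651-33955680, minus strand): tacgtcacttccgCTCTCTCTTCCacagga
Rps9 (chr7:3704026-3704055, plus strand): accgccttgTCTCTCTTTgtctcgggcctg
Rps16 (chr7:28350674-28350703, plus strand): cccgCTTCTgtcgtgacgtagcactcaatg
A run of at least 8 pyrimidines was present in 9 of the 29 windows (31.0%), beside 12% of 32851 windows of all genes, and the median longest run was 6 against 4 bases. By member, 3 of the 15 with a window among the 23 that followed the order held such a run, as did 6 of the 9 among the other 10. Rps27 is among these 6, and its class rests on a row that cannot be read alone. Summed with Rps27rt it followed the order, at 362 and 373 FPKM in CrT+/y replicates 1 and 2 against 564 to 648 FPKM in CrT-/y animals. This is a count of letters near annotated starts, which need not be the starts used in the cortex. The letters CTTCCG, on either strand of the 300 bases from 250 before to 50 after the start, were present for 21 of the 29 starts (72.4%), beside 16.9% of all.

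Other gene features were set beside the fold changes over the 31 protein-coding members without Rps27, as a description, since all points share the same 7 libraries. Spearman's rho of the log2 fold change was -0.41 with coding length, -0.37 with transcript length, -0.35 with the number of exons, -0.27 with the share of windows found in other genes and -0.068 with mean FPKM. Small nucleolar RNA genes lie within 10 of the members, 19 in all, with 3 each in Rps12 and Rpsa, and 7 of these 10 members are among the 23 that followed the order of animals. The 33 genes are spread over 14 chromosomes, with 9 on chromosome 7.

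Short transcripts outside the ribosome moved with the members. For each animal the deviation from the mean of all 7 was taken per gene, as log2, and its median formed over a group. Over the members it was 0.055, 0.087, 0.093 and 0.13 in CrT-/y replicates 0 to 3 and -0.27, -0.22 and 0.088 in CrT+/y replicates 1 to 3. Over 153 tested genes that encode no cytosolic ribosomal protein and have transcripts shorter than 600 bases it was 0.043, 0.051, 0.033 and 0.14 in CrT-/y animals and -0.15, -0.22 and 0.15 in CrT+/y animals. Transcripts of 4000 bases or more, 4257 genes, had 0.055 and 0.068 in CrT+/y replicates 1 and 2 and -0.030 to -0.013 in the other 5 animals. When the trend of each animal on transcript length was removed, the members' median log2 fold change was 0.14 and that of all tested genes 0.0020. In that fit 5 members were called higher, beside 575 of all tested genes. Length here is that of the principal annotated transcript, which for Rps15a (5179 bases) and Rps20 (3706 bases) is far above the coding length of 390 and 357 bases. Summed astrocyte markers, 4 genes, were also highest in CrT+/y replicates 1 and 2, at 358 and 323 FPKM, against 277 to 312 FPKM in the other 5 animals. The part of the astrocyte markers in the result was not tested. Erythroid markers lay between 21.1 and 56.3 FPKM in the first genotype and between 37.2 and 72.5 FPKM in the other.

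**Figure D5:**
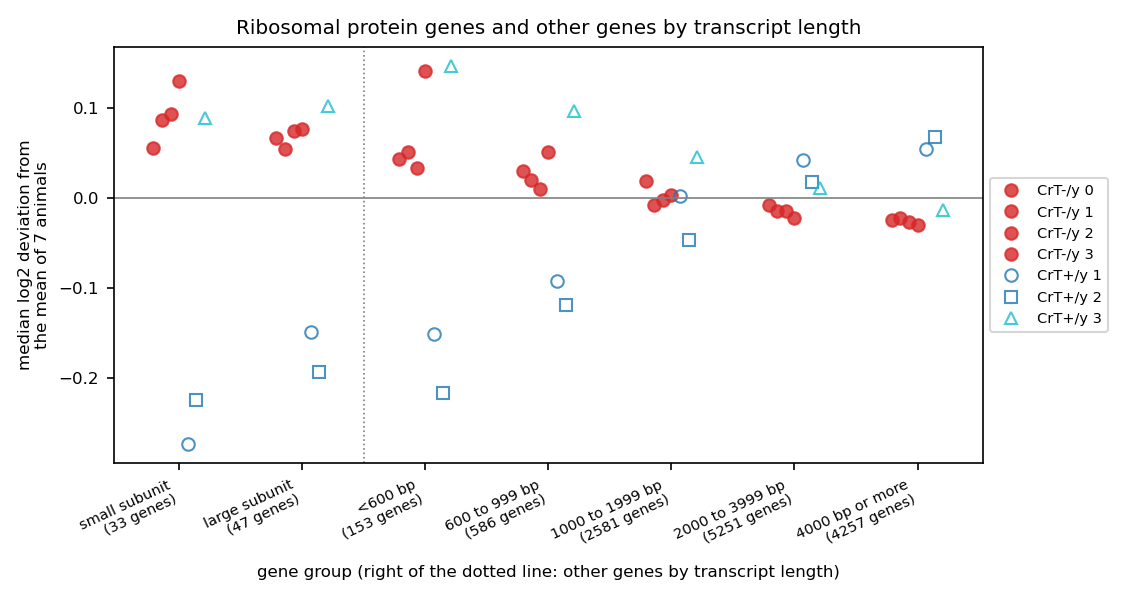
Median log2 deviation from the mean of 7 animals, 1 point per animal, for the small subunit genes, the large subunit genes and, right of the dotted line, all other tested genes by transcript length. CrT+/y replicates 1 and 2 lie lowest in both ribosomal groups and in both classes of shortest transcripts, and highest in the longest class.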

How the data were processed

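Total RNA was taken from the cerebral cortex of 7 mice and sequenced as paired-end poly(A) libraries. The authors aligned reads to mm10 and deposited 1 table of FPKM per gene and animal; the submitters' processing notes name Bowtie and Cuffnorm, whose versions are not given in the sources used here. The methods state that uniquely aligned reads on known exons and junctions were used, and no read counts were used here, so counting error is not given. Samples were grouped by the genotype in their labels.

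FPKM values were tested as log2(FPKM + 0.1) for genes averaging 1 FPKM or more, with limma 3.58.1 in R 4.3.3 (moderation with a trend, Benjamini-Hochberg over all tested genes, adjusted p below 0.1), and the fit was checked on simulated data. Python 3.11.15, pandas 2.3.3 and scipy 1.17.1 computed the rest. Gene models were GENCODE M21 (GRCm38); of the 24346 symbols, 23310 matched by name, 666 by synonym and 370 not. Transcript length was that of the transcript tagged principal in the annotation, the longest where several qualified. Alternatives were the pseudocount, the filter, the scaling, a correction for transcript length, the trend, the replicate number as a block and leaving out each animal. Relative depth was read from genes under 0.1 FPKM in all animals, as the most frequent ratio to CrT-/y replicate 2; the steps were less sharp in CrT+/y libraries (7.09% to 9.64% of genes in the densest window of 0.04 on the log2 scale) than in CrT-/y libraries (18.1% to 23.9%).

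The members and all gene lists were chosen with earlier results of these data known. Values in every animal are given for called members, those next by p, all with a negative fold change and both paralogs. Of the called list genes, Eif5b and Eif4e are given in every animal, and the others by mean and SD or by fold change. Rps14, Rps19, Rps20 and Rps4x were chosen after their values were seen. Single results of some members are not reported here, in the text or the plots; counts and medians include them. Whether the replicate numbers pair the animals was checked by correlating deviations from the group means of animals with the same number (-0.078, 0.046 and -0.051), so the numbers were not taken as pairs.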

Additional observations from a re-analysis of the deposited data

Results flagged for a closer look

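In the CrT-/y group of 4 animals, 2 of the 33 members had 1 animal set apart by Dixon's ratio, the gap to the nearest animal over the whole range, above its 95% critical value. Rpsa had a ratio of 0.922, from the high value of CrT-/y replicate 0. Rps18, a head protein, had a ratio of 0.842, from the low value of the same animal at 117 FPKM against 138 to 142 FPKM in the other 3. Chance flags about 1 in 20 such groups, and groups of 3 were not examined in this way.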

How the results depend on the processing

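The median log2 fold change of the 33 members stayed positive under all 18 alternatives run, between 0.14 and 0.35. Its shifts from 0.21 were smaller than the SD of the CrT+/y animals' median deviation over the members, 0.197. The 3 members called higher became 0 with no filter on low values, 6 with a filter at 5 FPKM or with quantile normalization, 12 with upper quartile scaling, and 5 with median centring or a transcript length correction. Called members numbered 0 to 23 when 1 animal was left out, with 23 only without CrT+/y replicate 3. There was 1, Rps27l, without CrT-/y replicate 0 and 0 without any of the other 5. Over all tested genes, the 377 called higher became 206 with no filter, 741 with upper quartile scaling and 575 with length correction. They became 326 with a filter at 5 FPKM, 528 with quantile normalization, 517 with median centring and 11 to 1340 with 1 animal left out. The 941 called lower became 524 with no filter, 555 with quantile normalization, 463 with upper quartile scaling, 583 with median centring, 625 without a trend and 53 to 2393 with 1 animal left out. With the replicate number as a block, 3 members were called higher (Rps16, Rps27l and Rps29), with 164 genes higher and 411 lower in all, and with block and length correction 1 member, 137 and 225. No call of a member as lower was made under any alternative.

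Of 595 single member values under alternatives, 514 kept direction and side of the threshold, 43 passed it newly, 27 lost it and 11 turned sign. The sign changes were Rps12 (0.025), Rps3a1 (0.022), Rps6 (0.0064) and Rpsa (0.030) with upper quartile scaling, Rpsa (0.0034) with median centring, and Rps10 (-0.024), Rps4l (-0.040) and Rps7 (-0.0066) with the replicate block and length correction. With 1 animal left out, Rps27 ranged from -1.81 (without CrT+/y replicate 3) to 0.28 and Rps7 from -0.0080 to 0.16, both sign changes without CrT+/y replicate 2, and Rps27 became 0.48 when summed with Rps27rt, an alternative added after seeing the data. The cause of these changes was not tested, beyond fewer or more genes tested under the filters and fewer animals in the fits that leave 1 out. Depth was taken here only as a ratio between libraries, and the read numbers that the study reports per replicate were not used. No counting error is therefore given for the lowest members, Rps27, Rps27l, Rps4l and Rps15a.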
